A study of Mus musculus with 6 samples.

Results

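The transcripts described here are 35 skeletal muscle genes that encode parts of the sarcomere, of calcium handling and of energy supply, measured in whole irradiated mouse prostates. They were taken by symbol from the 47719 gene identifiers of the expression tables, and all 35 were found, each under 1 identifier. The prostates came from 6 B6.129S4-Trp53tm3.1Tyj/J mice of about 3 months. Of these, 2 were wildtype (Trp53+/+, mice 39 and 41), 2 heterozygous (Trp53R270H/+, mice 37 and 40) and 2 homozygous (Trp53R270H/R270H, mice 47 and 49). Every mouse was given 5 Gy to the whole body and was dissected after 6 h, so no unirradiated mouse and no mouse without p53 enters the comparison. The design asks how 1 or 2 copies of the R270H mutation in the p53 gene alter transcript levels. Expression is given as FPKM, fragments per kilobase of exon scaled to library size, so that levels can be compared between genes of different length.

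Striated muscle contracts when myosin heads on thick filaments pull on actin thin filaments, which are anchored at the Z-disc. Contraction starts with calcium that leaves the sarcoplasmic reticulum through the ryanodine receptor and ends with its return through the SERCA pump. Creatine kinase, glycogen breakdown and myoglobin supply energy and oxygen. Smooth muscle of the prostate stroma uses other actin and myosin isoforms, while striated muscle lies around the urethra and beside the prostate.

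Many muscle genes are read from promoters that hold E-boxes (CANNTG, bound by MyoD family factors), CArG boxes (bound by serum response factor) or MEF2 sites. RefSeq windows of GRCm38.p6 were at hand for 26 of the 35 genes (31 windows), and the 250 bases before each start site were searched on both strands. An E-box was present in 83.9% of the windows of these genes, against 66.2% of all 32851 mouse windows. A CArG box was present in 4 of the 31 windows (12.9%) against 1.47% of all, in Acta1, Ldb3 and Myl3. The Ldb3 windows overlap and hold the same CArG box, which is counted in each. A MEF2 site was present in 3 of the 31 windows (9.68%) against 0.508% of all, in Myoz2, Ttn and Xirp2. No CArG box or MEF2 site overlapped an E-box, and a match in letters does not show that a factor binds. Printed here, 5′ to 3′, are Acta1 as the most abundant member, Cacna1s as the member with the smallest p-value, Myl3 as another gene with a CArG box, and Myoz2 as a gene whose values did not separate the genotypes. Capitals mark E-boxes, CArG boxes and MEF2 sites.
Acta1 (chr8:123894776-123895025, minus strand): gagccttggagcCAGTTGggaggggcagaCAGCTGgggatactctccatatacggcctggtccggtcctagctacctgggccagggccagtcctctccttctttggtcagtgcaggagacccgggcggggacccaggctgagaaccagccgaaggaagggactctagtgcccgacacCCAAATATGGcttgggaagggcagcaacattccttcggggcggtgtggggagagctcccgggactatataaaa
Cacna1s (chr1:136052561-136052810, plus strand): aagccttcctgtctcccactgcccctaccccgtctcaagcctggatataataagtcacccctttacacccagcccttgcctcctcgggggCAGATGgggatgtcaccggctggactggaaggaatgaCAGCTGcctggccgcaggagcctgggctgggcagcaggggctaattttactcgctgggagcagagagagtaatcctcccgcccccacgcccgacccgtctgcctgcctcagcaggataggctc
Myl3 (chr9:110763428-110763677, plus strand): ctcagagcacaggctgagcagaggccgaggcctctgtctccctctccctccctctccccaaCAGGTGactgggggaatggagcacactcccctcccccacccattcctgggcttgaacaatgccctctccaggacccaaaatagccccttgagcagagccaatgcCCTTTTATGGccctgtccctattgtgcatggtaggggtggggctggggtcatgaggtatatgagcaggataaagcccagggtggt
Myoz2 (chr3:123034988-123035237, minus strand): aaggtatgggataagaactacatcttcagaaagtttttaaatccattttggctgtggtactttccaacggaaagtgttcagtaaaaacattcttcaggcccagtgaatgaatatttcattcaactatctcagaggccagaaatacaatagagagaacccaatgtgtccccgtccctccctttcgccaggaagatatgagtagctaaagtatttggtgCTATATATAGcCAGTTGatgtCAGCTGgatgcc
The CArG box lies 64 to 73 bases before the start site in Acta1 and 76 to 85 bases before it in Myl3, and the MEF2 site lies 24 to 33 bases before it in Myoz2. The Cacna1s window holds 2 E-boxes, 118 to 123 and 155 to 160 bases before the start site, and neither of the other motifs. RefSeq start sites differ by some bases from the GENCODE gene ends given further on.

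Some properties of the tables bear on all values. FPKM summed to between 518671 and 636407 per mouse, and the spacing of the lowest values put the number of fragments at 0.786 to 1.07 times that of mouse 39, with no order by genotype. Trp53 itself had an FPKM between 17.3 and 21.4, and gene-level values do not separate mutant from wildtype alleles. Homozygous mouse 47 stood apart, since Pbsn, which encodes the prostate secretory protein probasin, had 257 there against 7329 to 11512 in the other mice. Of the 7 seminal vesicle genes, Svs2, Svs4 and Svs5 were listed at 0 in mouse 47 (Svs2 also in mouse 49), while Svs1, Svs3a, Svs6 and Pate4 were highest there, at 9136, 7321, 26147 and 16862 against at most 388, 324, 1021 and 4895 in the other mice. The 7 genes summed to 59466 in mouse 47, to 3488 in wildtype mouse 39 and to at least 35187 in the others. Results that change without these mice are given both ways.

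Summed over the 35 genes, FPKM was low in both wildtype mice and higher in all 4 mice with the mutation. Their summed FPKM was 2100 in mouse 39 and 3034 in mouse 41, against 5688 and 5926 in heterozygous mice 37 and 40, and 7072 and 6128 in homozygous mice 47 and 49. The mutant genotypes thus lay apart from wildtype and close to each other. The mean was 2567 ± 660.4 (SD, n = 2) for wildtype mice, 5807 ± 168 (SD, n = 2) for heterozygotes and 6600.0 ± 668 (SD, n = 2) for homozygotes, so that mutant means were 2.26 and 2.57 times the wildtype mean. The sum made up 0.386% and 0.499% of all FPKM in wildtype mice and 0.898% to 1.18% in the others. Acta1, Ckm and Myl1 alone held 46.1% to 49.5% of it in every mouse. In bulk tissue, a larger share of striated muscle in the piece and more muscle RNA per fibre cannot be told apart.

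**Figure D1:**
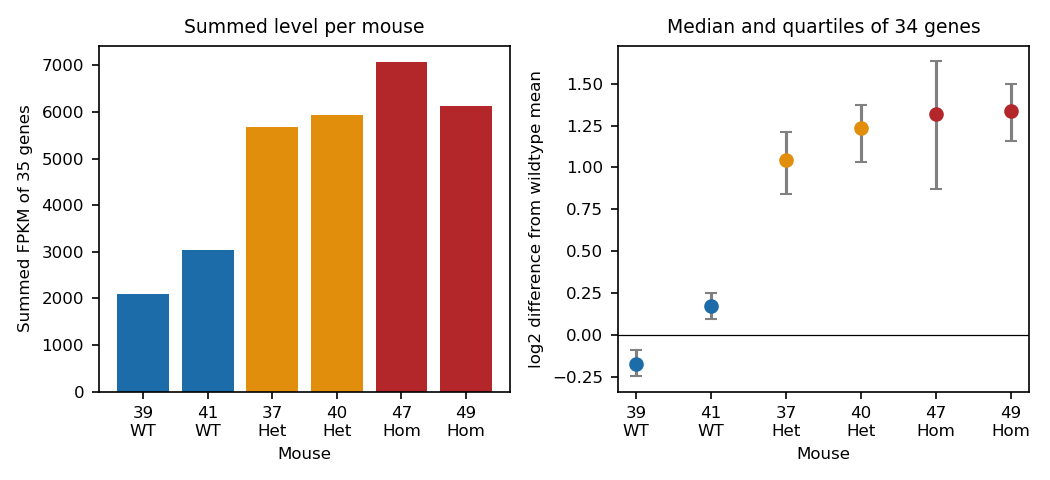
Left, summed FPKM of the 35 genes in each mouse (bars, axis from 0). Right, log2 difference of each mouse from the wildtype mean, as median (point) and quartiles (bar) of the 34 genes tested. The wildtype medians lie at -0.17 and 0.17 and the others between 1.04 and 1.34.

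The same order was seen gene by gene in the 34 members that reached a mean FPKM of 1. Mouse 39 had the lowest of the 6 values for 31 members, and mouse 41 the second lowest for 31. The highest value was in mouse 47 for 17 members and in mouse 49 for the other 17. In 32 members all 4 mice with the mutation exceeded both wildtype mice, which held for 11.6% of the 13818 genes tested. The exceptions were Fbxo32 and Myoz2.

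**Figure D2:**
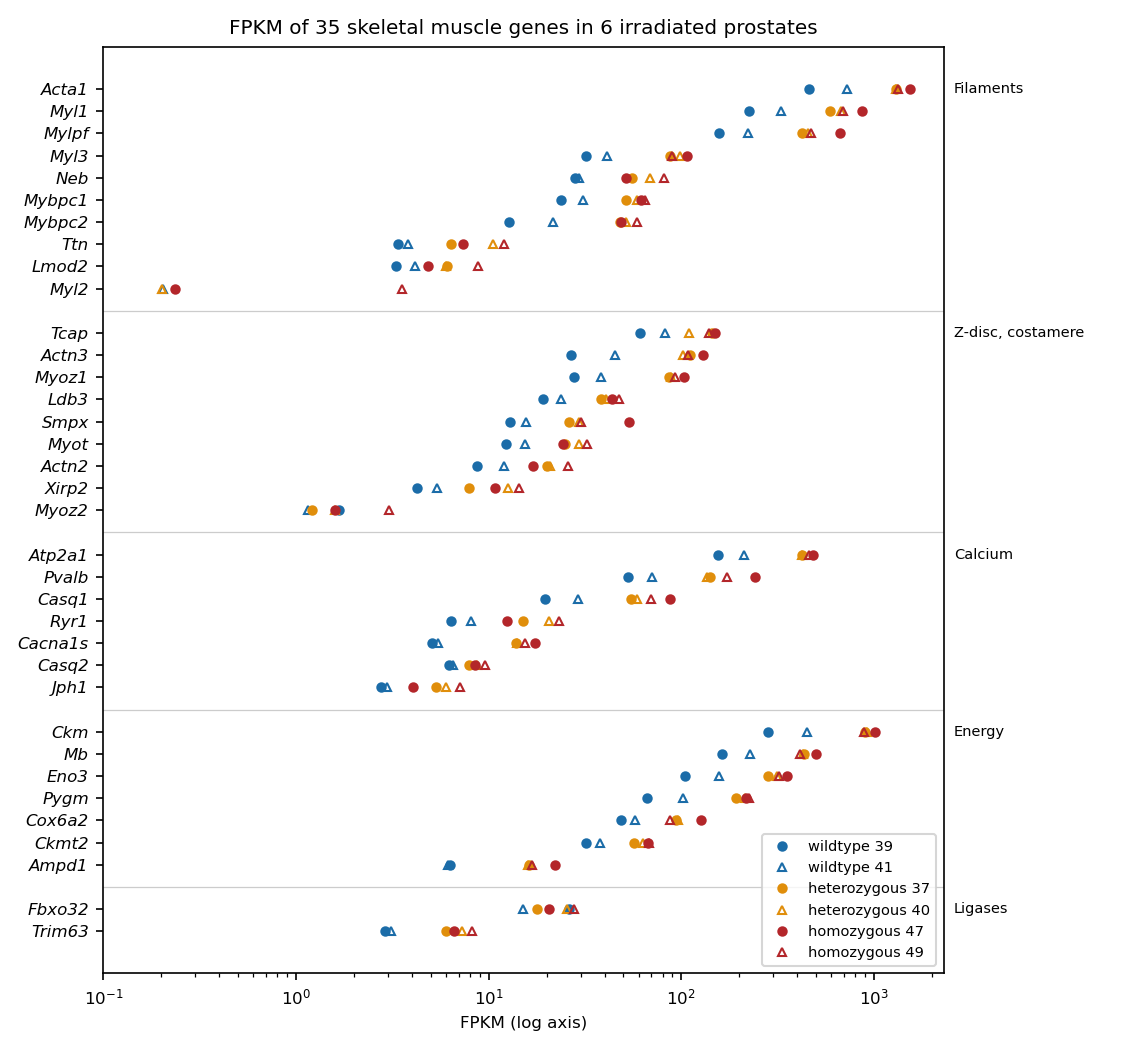
FPKM (log axis) of the 35 genes in the 6 mice, ordered within each role by mean FPKM, with colour for genotype and symbol for mouse. The wildtype points lie to the left of all others in 32 of the 34 genes tested; Myl2, listed at 0 in mice 39 and 37, has no point for them.

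Differences between genotypes were tested with limma on log2(FPKM + 0.1) over the 13818 genes that reached a mean FPKM of 1, and p-values were adjusted over these genes by the Benjamini-Hochberg method. Fold changes are on this scale, which understates the change of low genes. In the moderated F-test over the 3 genotypes, 30 of the 34 members had an unadjusted p-value under 0.05 and a difference of at least 1.5-fold between some pair of groups, against 8.31% of all tested genes. After adjustment 1 member passed, Cacna1s, against 0.101% of all tested genes, and it no longer did with any mouse left out. The members' levels moved together from mouse to mouse, so they are not independent counts.

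In homozygous against wildtype mice, 3 members rose with an adjusted p-value under 0.05, namely Cacna1s, Ampd1 and Myoz1, where 0.123% of all tested genes did. At an unadjusted p-value under 0.05 and at least 1.5-fold, 31 of 34 members were higher, against 6.54% of all tested genes, and 0 were lower, against 4.42%. The median log2 fold change of the members was 1.33 (2.52-fold), against -0.04 over all tested genes. The adjusted calls were not stable when a mouse was left out. The log2 fold change then ranged from 1.53 to 1.70 for Cacna1s, from 1.42 to 1.81 for Ampd1 and from 1.35 to 1.82 for Myoz1. The count without adjustment stayed between 28 and 32 whichever mouse was left out, and the median was 1.34 without mouse 47.

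In heterozygous against wildtype mice, 0 members had an adjusted p-value under 0.05 in limma, where 0% of all tested genes did, while 31 were higher at an unadjusted p-value under 0.05, against 4.66%. With at least 1.5-fold in addition, 30 of 34 were higher, against 3.22% of all tested genes, and 0 were lower, against 0.861%. The number higher was 24 when mouse 39 was left out. The median log2 fold change was 1.16 (2.24-fold), against -0.01 over all tested genes. Both comparisons use the same wildtype mice, so their values are not independent.

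Between homozygous and heterozygous mice, the median log2 difference of the members was 0.16 (1.12-fold). In limma 0 members were higher with an adjusted p-value under 0.05, against 0.00724% of all tested genes, and 1, Pvalb, was higher at an unadjusted one, against 1.97%. The count at an unadjusted p-value and 1.5-fold was 0, against 0.912%. The 95% interval of this difference ran from 0.668-fold to 1.81-fold for Acta1 and from 0.946-fold to 1.43-fold for Cacna1s, so moderate differences are within the error. In 15 of 34 members the 3 genotypes did not overlap and were ordered by the number of mutant alleles from low to high, against 3.85% of all tested genes. Without mouse 47 this held for 26 members, and for 21 without mouse 49 or mouse 40. Such an order is easier to meet with a mouse fewer, so these 2 counts cannot be set against the 15 or the 3.85%.

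**Figure D3:**
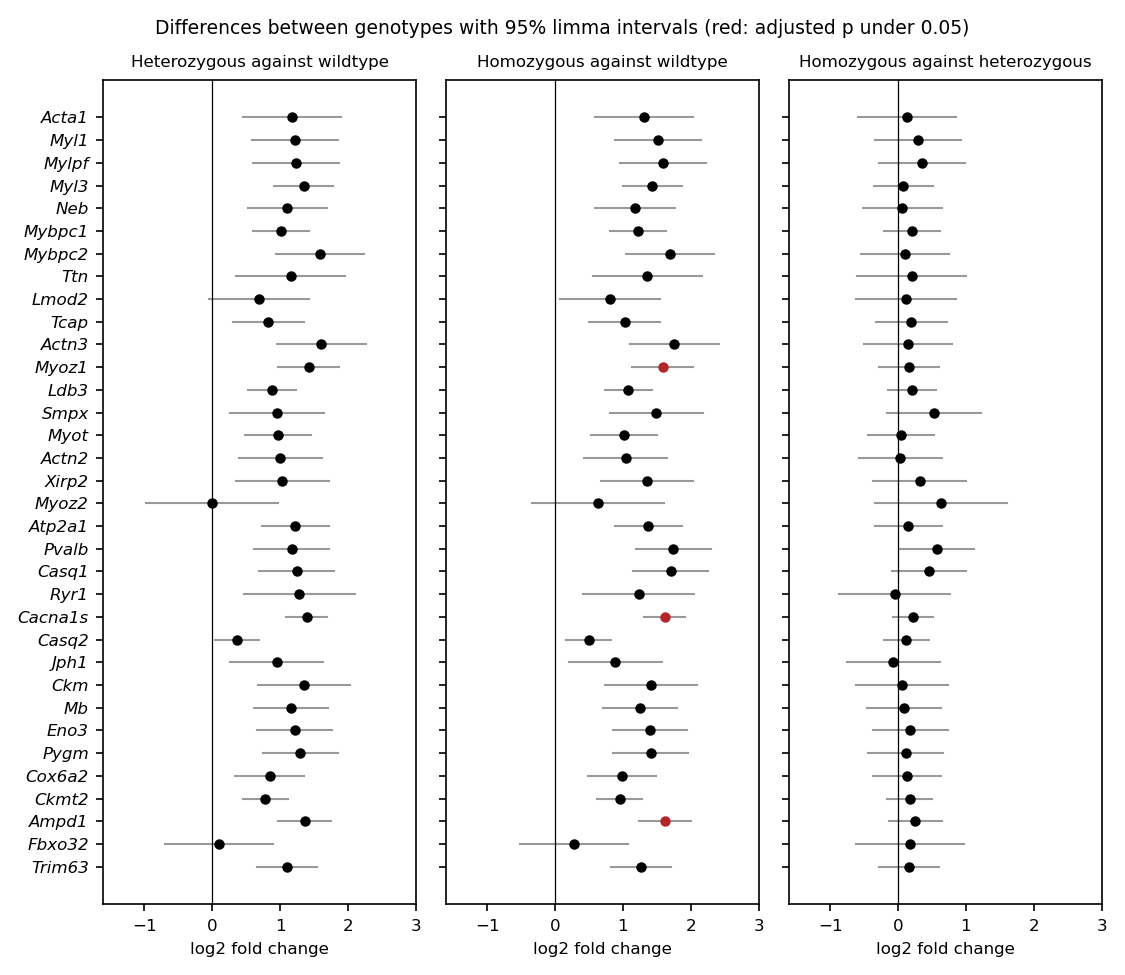
log2 fold change (points) with 95% limma intervals (bars) of the 34 tested genes in the 3 comparisons of genotypes, red where the adjusted p-value is under 0.05. Intervals lie above 0 for 31 genes in heterozygotes and 32 in homozygotes against wildtype, red points are Cacna1s, Ampd1 and Myoz1 in homozygotes, and between the mutant genotypes all intervals but that of Pvalb include 0.

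Among the 10 filament genes, Acta1, skeletal alpha-actin of the thin filament, had the highest FPKM of all members. Acta1 (ENSMUSG00000031972, chromosome 8, 123891769 to 123894751 of GRCm38, minus strand) had 459.7 and 724 in the wildtype mice, 1296 and 1305 in heterozygotes and 1532 and 1336 in homozygotes. The wildtype mice lay lowest and differed from each other more than the heterozygotes did. The log2 fold change was 1.17 for heterozygotes (standard error 0.29, adjusted p = 0.424 in limma) and 1.31 for homozygotes (standard error 0.29, adjusted p = 0.146 in limma). Actins are close in sequence, and how the authors' counting divided fragments between them is not given in the sources used here.

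Myl1, the essential light chain of fast myosin, had an FPKM of 225 and 329 in the wildtype mice, 592 and 677 in heterozygotes and 869 and 695 in homozygotes. Mylpf, the regulatory light chain of fast myosin, had 157 and 222, then 425 and 456, then 666 and 472. Mouse 39 was lowest and mouse 47 highest for both, and the log2 fold change of homozygotes was 1.51 for Myl1 (adjusted p = 0.103 in limma) and 1.59 for Mylpf (adjusted p = 0.0916 in limma). Mybpc2 and Mybpc1, the fast and slow myosin-binding proteins C, differed by 1.69 and 1.22 on the log2 scale between homozygous and wildtype mice. Neb, which runs along the thin filament, and Ttn, which spans from Z-disc to M-line, differed by 1.18 and 1.36. Lmod2, which elongates thin filaments, had the smallest difference of the 9 tested filament genes, 0.81. None of these passed adjustment.

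The light chains of slow and cardiac myosin had different patterns. Myl3, the essential light chain, had an FPKM of 32.1 and 40.9 in the wildtype mice, 87.4 and 98.5 in heterozygotes and 108 and 89.2 in homozygotes, with a log2 fold change of 1.43 for homozygotes (adjusted p = 0.0529 in limma). Myl2, the regulatory light chain, was listed at 0 in mice 39 and 37, at 0.205 in mouse 41, at 0.202 in mouse 40 and at 0.235 in mouse 47, but at 3.56 in mouse 49. Its mean of 0.700 was under the filter and it was not tested. Some other genes of slow fibres, chosen after their values were seen, were also highest in mouse 49. There Myh7, Tnnc1, Tnni1 and Ankrd2 had 1.74, 2.69, 1.58 and 1.18, where the other mice reached at most 0.0481, 0.631, 0.596 and 0.387. Tnnt1, slow troponin T, was less apart, with 8.97 in mouse 49 against 5.12 to 7.37 in the other mice.

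Of the 9 genes of the Z-disc and costamere, 8 were at least 1.5-fold higher at an unadjusted p-value under 0.05 in each mutant genotype, against 3.22% of all tested genes in heterozygotes and 6.54% in homozygotes. Myoz1 (calsarcin-2, a fast-fibre Z-disc protein that binds calcineurin), on chromosome 14 from 20649107 to 20656540, had an FPKM of 27.7 and 38.4 in the wildtype mice, 86.3 and 88.7 in heterozygotes and 103 and 93.1 in homozygotes. It rose by 1.58 on the log2 scale in homozygotes (standard error 0.18, adjusted p = 0.0477 in limma). Actn3, the fast-fibre alpha-actinin that cross-links actin at the Z-disc, had 26.7 and 45.6, then 111 and 102, then 129 and 108. Its log2 difference of 1.76 was the largest of the 34 members, with an adjusted p of 0.0821 in limma, and its wildtype mice differed by 0.77 on the log2 scale. Tcap, telethonin, which caps titin at the Z-disc, had 60.8 and 82.7, then 144 and 109.8, then 149 and 139.6, with a log2 difference of 1.02 in homozygotes (adjusted p = 0.136 in limma).

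The slow and cardiac relative of Myoz1 had another pattern. Myoz2 (calsarcin-1) had an FPKM of 1.66 and 1.16 in the wildtype mice, 1.21 and 1.59 in heterozygotes and 1.59 and 3.03 in homozygotes. The genotypes overlapped, and mouse 49 lay above the rest. The log2 difference was -0.0017 for heterozygotes, with an interval from 0.509-fold to 1.96-fold, and 0.63 for homozygotes (adjusted p = 0.445 in limma). Smpx, a small costamere protein encoded on the X chromosome, had 53.5 in mouse 47 against 30.2 in mouse 49, and 12.9 and 15.7 in the wildtype mice. Actn2, Ldb3, Xirp2 and Myot, further Z-disc proteins, had log2 differences between 1.02 and 1.35 in homozygotes.

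The member with the smallest p-value belongs to calcium handling. Cacna1s (ENSMUSG00000026407, chromosome 1, 136052750 to 136119822, plus strand), the voltage sensor of the T-tubule, had an FPKM of 5.09 and 5.44 in the wildtype mice, 13.9 and 14.1 in heterozygotes and 17.3 and 15.4 in homozygotes. The mice of each genotype were close and the 3 genotypes did not overlap. The log2 fold change was 1.39 for heterozygotes (adjusted p = 0.127 in limma) and 1.61 for homozygotes (adjusted p = 0.0175 in limma), each with a standard error of 0.12, the smallest of the 34 members. The F-test had an adjusted p of 0.0377 in limma.

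Atp2a1, the SERCA1 calcium pump of fast fibres, had an FPKM of 155 and 213 in the wildtype mice, 426 and 425 in heterozygotes and 485 and 459 in homozygotes. Pvalb, the calcium buffer parvalbumin of the fastest fibres, had 52.9 and 70.7, then 140.3 and 135, then 243 and 173. Casq1, the calcium store protein of fast fibres, had 19.6 and 29.2, then 54.7 and 59.0, then 87.4 and 69.7. Each of these genes was lowest in wildtype and highest in homozygous mice without overlap, with log2 differences in homozygotes of 1.38, 1.74 and 1.70 (adjusted p = 0.0741, 0.0580 and 0.0590 in limma). Casq2, the cardiac and slow-fibre form of the store protein, had 6.20 and 6.57, then 7.87 and 8.68, then 8.49 and 9.58, a log2 difference of 0.49 in homozygotes (adjusted p = 0.182 in limma). Ryr1, the calcium release channel, and Jph1, which ties the reticulum to the T-tubule, had log2 differences of -0.05 and -0.07 between homozygotes and heterozygotes, with intervals from -0.87 to 0.77 and from -0.75 to 0.62.

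All 7 energy genes were at least 1.5-fold higher at an unadjusted p-value under 0.05 in each mutant genotype, where 3.22% of all tested genes were so in heterozygotes and 6.54% in homozygotes. Ckm, muscle creatine kinase, had an FPKM of 283 and 448 in the wildtype mice, 898 and 924 in heterozygotes and 1019 and 886 in homozygotes. Mb, myoglobin, had 162 and 226, then 434 and 426, then 502 and 415, and Eno3, muscle enolase, had 105 and 156, then 281 and 314, then 353 and 323. The wildtype mice were lowest for each of these, and the mutant genotypes overlapped for Ckm and Mb. Ampd1, the AMP deaminase of muscle, had 6.28 and 6.13 in the wildtype mice, 16.2 and 16.0 in heterozygotes and 22.1 and 16.8 in homozygotes. Ampd1 (chromosome 3, 103074014 to 103099720) rose by 1.62 on the log2 scale in homozygotes (standard error 0.16, adjusted p = 0.0324 in limma). Ckmt2 and Cox6a2, which encode mitochondrial proteins, had the smallest differences of the group, 0.95 and 0.98, and Pygm, glycogen phosphorylase, had 1.41.

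The ubiquitin ligases that mark muscle proteins for breakdown had unlike values. Trim63 (MuRF1) had an FPKM of 2.89 and 3.12 in the wildtype mice, 5.98 and 7.29 in heterozygotes and 6.61 and 8.21 in homozygotes, with a log2 difference of 1.27 in homozygotes (adjusted p = 0.0709 in limma). Fbxo32 (atrogin-1) had 26.0 and 15.0, then 17.7 and 25.5, then 20.6 and 27.9. The genotypes overlapped for Fbxo32, with log2 differences of 0.10 and 0.28 (adjusted p = 0.976 and 0.675 in limma).

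Most members differed by a similar factor, so each gene was also set against the median member of the same mouse, without a test. Relative to that median, the change from wildtype was within 0.5 on the log2 scale for 28 of 34 members in homozygotes and for 29 in heterozygotes. Acta1 exceeded the median member on the log2 scale by 4.21 and 4.62 in wildtype mice, 4.61 and 4.47 in heterozygotes and 4.73 and 4.33 in homozygotes, with overlap of all genotypes. For Acta1 over Ckm the wildtype mice had FPKM ratios of 1.63 and 1.61, against 1.41 to 1.51 in the others. The ratio of Acta1 to Atp2a1 stayed between 2.91 and 3.40. Members further from the median in homozygotes were Actn3, Pvalb and Casq1, at 0.56, 0.55 and 0.51, and Fbxo32, Casq2 and Myoz2, at -0.92, -0.70 and -0.57.

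Members typical of fast fibres had larger median differences than those typical of slow fibres or heart, which was not tested. The 8 fast-typical members (Mylpf, Myl1, Mybpc2, Actn3, Myoz1, Casq1, Atp2a1 and Pvalb) had a median log2 difference of 1.24 for heterozygotes and 1.64 for homozygotes. The 4 tested slow- or heart-typical members (Myl3, Mybpc1, Myoz2 and Casq2) had 0.69 and 0.92. In homozygotes Myl3 and Mybpc1 differed by 1.43 and 1.22, near the median of 1.33 over all members. Myoz2, with a mean FPKM of 1.71, and Casq2 differed by 0.63 and 0.49. Within a mouse, the ratio of Casq1 to Casq2 was 3.17 and 4.44, then 6.96 and 6.80, then 10.3 and 7.28 in the same order of genotypes. The ratio of Actn3 to Actn2 was 3.09 and 3.81, then 5.53 and 4.88, then 7.57 and 4.16, and that of Mybpc2 to Mybpc1 was 0.537 and 0.696, then 0.934 and 0.883, then 0.791 and 0.908. In these 3 pairs all mice with the mutation lay above both wildtype mice, while the ratio of Mylpf to Myl3 overlapped between genotypes, from 4.63 to 6.18. The ratio of Myoz1 to Myoz2 overlapped as well, at 16.6 and 33.1, then 71.5 and 55.6, then 64.7 and 30.7, since homozygous mouse 49 lay below wildtype mouse 41.

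**Figure D4:**
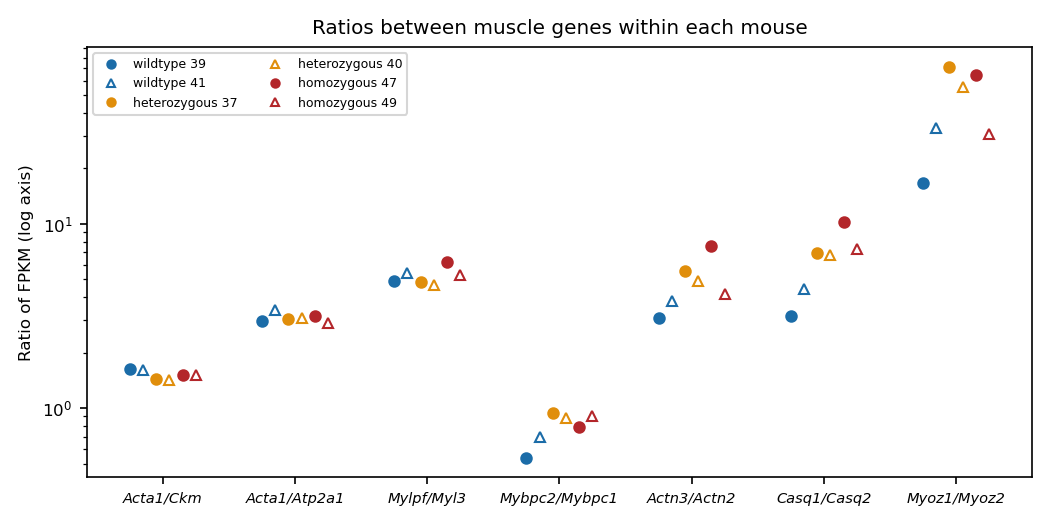
FPKM ratios (log axis) between pairs of muscle genes within each mouse, with colour for genotype and symbol for mouse. Acta1/Ckm stays between 1.41 and 1.63, whereas the wildtype mice are lowest for Mybpc2/Mybpc1, Actn3/Actn2 and Casq1/Casq2, and Mylpf/Myl3 and Myoz1/Myoz2 overlap between genotypes.

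The mice of a genotype differed in a way that moved with exon length. In mouse 47, members with under 2000 annotated exon bases differed from mouse 49 by a median of 0.20 on the log2 scale (11 genes), and members with over 6000 bases by a median of -0.43 (7 genes). Ttn, Neb and Ryr1, the longest, had differences of -0.71, -0.66 and -0.90, whereas Cox6a2, Tcap, Pvalb and Mylpf, the shortest, had 0.54, 0.10, 0.49 and 0.50. Members also went against this order, such as Lmod2 (1976 bases) at -0.86 and Cacna1s (6550 bases) at 0.17. Spearman's coefficient of this difference with exon length was -0.63 over the 34 members and -0.23 over the 13789 tested genes with an annotated length, which share libraries and are not independent. For mouse 40 minus mouse 37 the medians were 0.45 for long and 0.03 for short members, with a coefficient of 0.54 over the members and 0.32 over all. For mouse 41 minus mouse 39 they were 0.17 and 0.47, with a coefficient of -0.37 and -0.11. The part of length in the differences between genotypes was not tested, and both long members such as Ttn and Neb and short ones such as Mylpf and Cox6a2 were higher in all 4 mutant mice than in wildtype mice.

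**Figure D5:**
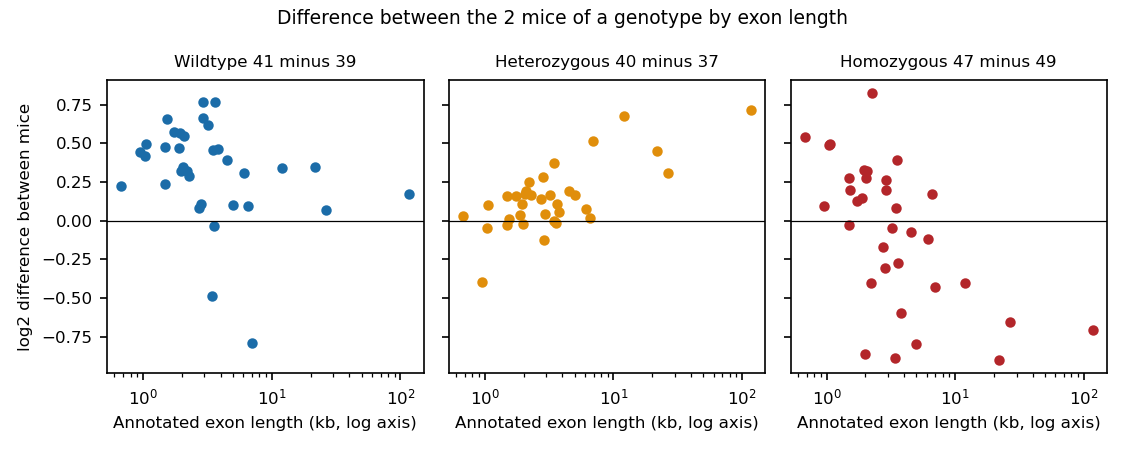
log2 difference in FPKM between the 2 mice of each genotype (vertical axis) by annotated exon length in kb (log axis) for the 34 tested genes. Spearman's coefficient is -0.63 for mouse 47 minus 49, 0.54 for mouse 40 minus 37 and -0.37 for mouse 41 minus 39.

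Further genes of the same pathways were read from lists of their known members. Of 22 other sarcomere and chaperone genes tested, 16 were at least 1.5-fold higher at an unadjusted p-value under 0.05 in homozygotes, against 6.54% of all tested genes, with a median log2 difference of 0.90. Des (desmin) and Pdlim3, the most abundant of them, had 0.36 and 0.91. Of 15 other genes of excitation-contraction coupling, 10 were higher to this extent, with a median of 1.04. Among them the reticulum proteins Trdn (triadin) and Jsrp1 rose by 1.57 and 1.36 (adjusted p = 0.0345 and 0.0487 in limma). Of 14 other muscle energy genes, 11 were higher, with a median of 1.06, and Cpt1b, which serves fatty acid import into mitochondria, rose by 1.25 (adjusted p = 0.0479 in limma). Of 7 other genes linked to atrophy, 4 were higher, with a median of 0.65. Each of these counts stands against the same 6.54% of all tested genes.

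Markers of other tissues were read beside these values. The fast and slow fibre genes summed to 815 and 1084, then 2075 and 2302, then 2588 and 2288 in wildtype mice, heterozygotes and homozygotes, the same order of genotype means as for the members. Smooth muscle genes summed to 1493 and 1776, then 2001 and 1630.3, then 2455 and 1644, with overlap. In either mutant genotype 0 of 8 were at least 1.5-fold higher at an unadjusted p-value under 0.05. Of all tested genes, 3.22% were so in heterozygotes and 6.54% in homozygotes. Also 0 were lower to this extent, against 0.861% and 4.42%. All 8 had a positive log2 difference in each mutant genotype, where 6516 and 6219 of the 13818 tested genes did. The medians were 0.20 in heterozygotes and 0.42 in homozygotes. Of the heart markers, Myl7 and Nppb were listed at 0 in all mice, and Nppa and Myh6 reached at most 0.0466 and 0.137. The other 4 were present in every mouse. Tnni3, cardiac troponin I, lay between 3.77 and 6.65, with a log2 difference of -0.23 in homozygotes (adjusted p = 0.678 in limma). Myl4 had 1.01 and 0.853, then 1.63 and 1.65, then 1.91 and 1.11, so that wildtype mice were lowest. The log2 difference of Myl4 was 0.76 in heterozygotes and 0.60 in homozygotes (adjusted p = 0.811 and 0.412 in limma). Skeletal muscle can also express Actc1 and Tnnt2. Actc1 had 17.1 and 27.9, then 40.2 and 54.4, then 42.1 and 52.4, so that wildtype mice were lowest. Its log2 difference was 1.10 in each mutant genotype (adjusted p = 0.438 and 0.171 in limma). Tnnt2 had 3.58 and 7.23, then 8.43 and 6.85, then 15.9 and 7.63, with a log2 difference of 1.10 in homozygotes (adjusted p = 0.281 in limma). Of the 4 heart markers tested, 3 had a positive log2 difference in homozygotes. The 5 adipocyte genes summed to 268 and 158, then 235 and 282, then 413 and 286, with overlap, and had median log2 differences of 0.33 in heterozygotes and 0.65 in homozygotes. Only 1 of the 5 was ordered by allele number without overlap, Plin1, perilipin of fat droplets. It had 13.3 and 8.59, then 15.2 and 17.9, then 19.0 and 24.6. Its log2 difference of 1.01 in homozygotes (adjusted p = 0.164 in limma) was the largest of the 5. The lowest of the 5 was -0.59, and 4 of the 5 were positive. Nerve genes summed to between 53.7 and 80.4, with medians of 0.42 and 0.01, and the 9 prostate epithelium genes to between 30239.8 and 64309.9. The part of tissue composition in the differences was not tested.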

How the data were processed

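Per the labels and the methods, RNA of snap-frozen prostates was made into stranded mRNA libraries and sequenced as read pairs. The authors aligned reads to GRCm38/mm10 with HISAT and deposited gene-level FPKM from Cufflinks; Cuffnorm is also named in the submitters' processing notes, and tool versions are not given in the sources used here. FPKM hold no fragment counts, so absolute depth and counting error are unknown. Of 47719 identifiers, 47305 are in GENCODE M21, used for positions and exon lengths (union of annotated exons).

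With limma 3.58.1 (R 4.3.3), the 3 genotypes were compared in a linear model (eBayes with intensity trend, 2.77 prior and 3 residual degrees of freedom) of log2(FPKM + 0.1) of the 13818 genes whose mean FPKM was 1 or more, after it was tested on simulated data. Adjusted p-values follow Benjamini and Hochberg, with a threshold of 0.05. Descriptions used Python 3.11.15 and pandas 2.3.3. The members and lists were chosen with earlier results of these data known. FPKM per mouse are given for the most abundant genes of each role and for those past the adjusted threshold; others are named at the ends of ranges or where they went against the rest, and 1 gene of the lists is not reported here. No library was left out, and the labels name no batch. Alternatives were a pseudocount of 1 or 0.01, no filter, a filter at 5, quantile normalization, scaling to the median, no intensity trend, the variance of each gene alone, and each mouse left out.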

Additional observations from a re-analysis of the deposited data

How the results depend on the processing

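Over the 14 alternatives, 943 of 948 log2 fold changes of single members against wildtype kept their direction. The exceptions were Fbxo32, at -0.29 in heterozygotes and -0.12 in homozygotes without mouse 41 and at -0.15 in heterozygotes without mouse 40, and Myoz2, at 0.24 in heterozygotes without mouse 39 and 0.19 without mouse 37. With each mouse left out in turn, Fbxo32 ranged from -0.29 to 0.50 in heterozygotes and from -0.12 to 0.67 in homozygotes, and Myoz2 from -0.25 to 0.24 in heterozygotes.

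The number of members past the adjusted threshold moved with the settings. For the F-test it was 1, and 0 with no filter, quantile normalization, no intensity trend or the variance of each gene alone, and 0 with any mouse left out. For homozygous against wildtype mice it was 3, and became 0 with no filter or the variance of each gene alone, 1 with no intensity trend, 6 with quantile normalization, 7 with a filter at a mean FPKM of 5, and 0 to 6 with a mouse left out. The adjusted limma p of this comparison ranged from 0.0175 to 0.224 for Cacna1s, from 0.0287 to 0.253 for Ampd1 and from 0.0367 to 0.276 for Myoz1 with all mice kept. The cause was not tested. Leaving out a mouse leaves a lone one that is assumed to vary like the other groups.

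Between the mutant genotypes, members at an unadjusted p-value with 1.5-fold numbered 2 with quantile normalization and 1 with median scaling in place of 0, and 0 to 2 with a mouse left out. The median difference was 0.30 with quantile normalization and 0.11 to 0.21 with a mouse left out. Against wildtype the median ranged from 0.94 to 1.30 for heterozygotes and from 1.11 to 1.51 for homozygotes with a mouse left out, lowest without mouse 39. Members ordered by allele number without overlap numbered 15 to 18 with all mice kept. With a mouse left out they numbered 15 to 26, where the order is easier to meet. No paired analysis was possible because the labels give each mouse a number of its own, and no number occurs in more than 1 genotype.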

Other observations

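Transcripts of immature or regenerating fibres were measured in the same mice. Myh8, the neonatal myosin heavy chain, had an FPKM of 7.33 and 11.6 in the wildtype mice, 23.8 and 33.8 in heterozygotes and 26.1 and 32.7 in homozygotes, with log2 differences of 1.61 and 1.66 against wildtype (adjusted p = 0.228 and 0.102 in limma). Myod1, a factor that starts muscle gene expression, had 0.526 and 0.694, then 1.40 and 1.29, then 1.79 and 2.07. Neither gene overlapped between wildtype mice and mice with the mutation. Myh3, the embryonic heavy chain, reached at most 0.0386 and Pax7, the marker of muscle stem cells, at most 0.108.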
